A study of Mus musculus with 20 samples.

Results

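The genes described here are 9 transcription factors that specify and maintain hepatocytes: Hnf4a, Cebpa, Cebpb, Foxa1, Foxa2, Foxa3, Onecut1, Prox1 and Nr5a2. They were taken by symbol from a table of 49315 mouse genes, and all 9 of 9 were found. The table covers the livers of 20 DIO NASH mice, in which an obesogenic diet has produced steatohepatitis, a fatty and inflamed liver. Of these, 10 received S217879 at 30 mg/kg by mouth once daily, and 10 received the vehicle, HEC 1%. Both groups stayed on the AMLN diet during the 8 weeks of dosing, so every liver compared here came from a mouse on that diet. The state of the disease in each liver was not assessed here, and no healthy or untreated mouse was analysed. The series title describes S217879 as a compound that separates NRF2, a transcription factor that induces antioxidant and detoxifying genes, from its repressor KEAP1. The labels number each mouse separately and give neither age, strain, sex nor batch.

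Hepatocyte identity rests on a small circuit of transcription factors that bind each other's genes and the genes of liver metabolism. FOXA proteins open closed chromatin for other factors. HNF4A, a nuclear receptor, and the C/EBP proteins, which are basic leucine zipper factors, then drive genes of lipoprotein, glucose, bile acid and plasma protein production. ONECUT1 (HNF6) and PROX1 act in the outgrowth of the liver bud and persist in the adult liver, and LRH-1, the product of Nr5a2, controls bile acid and cholesterol genes.

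Values are TPM, a transcript abundance scaled by gene length and by each library's own total. The number of reads is therefore unknown, and the precision of a value is the spread between mice. The rRNA-type models Gm23935, Gm24270, Gm42418 and Mir6236 took 14.1% to 38.1% of the TPM of the S217879 libraries and 17.4% to 58.2% of that of the vehicle libraries. Vehicle replicates 6 and 7 stood apart, with 58.2% and 50.7%, and the other genes of those libraries were low in proportion. Results were therefore also computed without these libraries, after median-of-ratios scaling, which sets the libraries to a common level through the median gene, and as ratios of 2 genes within a liver, which do not depend on the scale. The NRF2 target Nqo1 averaged 102 ± 13.9 TPM in S217879 livers and 14.6 ± 3.52 TPM in vehicle livers (SD, n = 10 each), a log2 difference of 2.79 (limma adjusted p = 1.06e-20). Gstm1, another NRF2 target, differed by 3.60 (limma adjusted p = 3.18e-22). Nfe2l2, which encodes NRF2, fell by 0.89 (limma adjusted p = 3.08e-07), and Keap1 differed by 0.13 (limma adjusted p = 0.416).

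Of the 9 factors, Foxa3 fell in S217879 livers, and none of the other 8 passed the test on the deposited values. Foxa3, a liver-enriched forkhead factor, reached 0.634 times its vehicle level. The test was limma on log2(TPM + 0.5) with the p-value adjusted over all 13401 genes of at least 1 TPM on average, and a gene was called at an adjusted p under 0.05. All 9 factors were above that minimum. Over all genes 29.6% were called, 6.07% as higher and 23.5% as lower. Of the factors 0 were called higher and 1 lower, and at an unadjusted p under 0.05 the counts were 0 higher and 3 lower (Foxa1, Foxa3 and Prox1). The exact Wilcoxon test also called 0 higher and 1 lower. The factors' median log2 difference was -0.22, against -0.12 for all genes tested, and 8 of 9 lay below 0, against 68.1% of all genes. After median-of-ratios scaling 53.7% of all genes were called, 26.6% higher and 27.1% lower, the median of all genes was -0.01 and that of the factors -0.11. On that scale 1 factor was higher (Hnf4a) and 2 were lower (Foxa3 and Prox1). In whole liver, fewer cells of a type and less RNA per cell cannot be told apart.

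**Figure D1:**
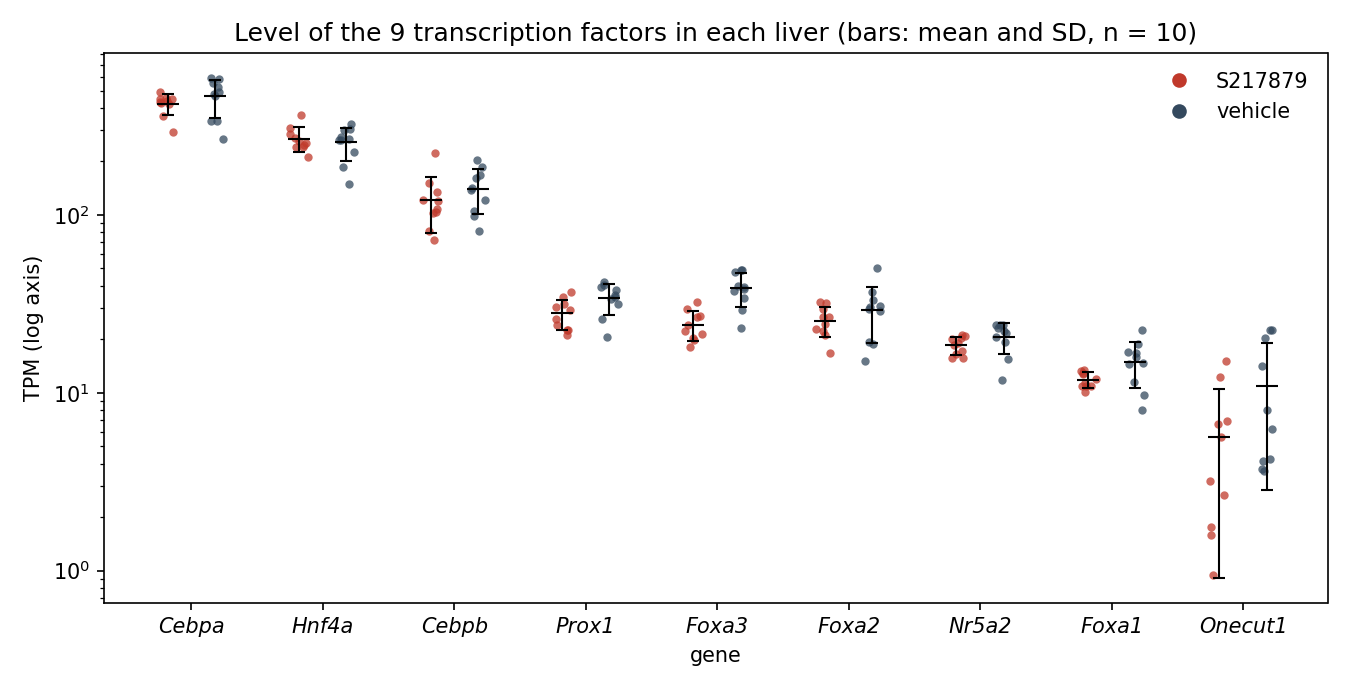
TPM of each factor (log axis) in each of 10 S217879 livers (red, left of each pair) and 10 vehicle livers (dark, right), with the mean and SD as black bars. The Foxa3 points lie at 18 to 32.2 TPM in S217879 livers and at 23.1 to 49.1 TPM in vehicle livers, and the groups overlap for every factor.

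The factors spanned a wide range of levels, which TPM allows to be compared because it is per length. Cebpa was the most abundant in both groups, at 421 ± 55.8 TPM in S217879 livers and 463 ± 112 TPM in vehicle livers (SD, n = 10 each). Hnf4a followed, then Cebpb, and each of these 3 lay above the next in 10 of 10 livers of either group. Below Cebpb came a gap of 4.36 times in S217879 livers and 3.63 times in vehicle livers, and the ranges on its 2 sides did not overlap. Prox1, Foxa2 and Foxa3 then lay close together. In S217879 livers Prox1 exceeded Foxa2 in 6 of 10 livers and Foxa2 exceeded Foxa3 in 5 of 10, so these neighbours did not differ beyond their spread. In vehicle livers Foxa3 headed this set and exceeded Prox1 in 7 of 10 livers. Nr5a2, Foxa1 and Onecut1 were the lowest in both groups, and Foxa1 exceeded Onecut1 in 9 of 10 S217879 livers and 7 of 10 vehicle livers. Among all genes tested, Cebpa stood at the 98.4 percentile of mean TPM in S217879 livers and at the 98.6 percentile in vehicle livers, whereas Onecut1 stood at the 42.4 percentile in S217879 livers and at the 57.5 percentile in vehicle livers.

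Foxa3 lies on chromosome 7 (GRCm38, chr7:19013284-19023538, minus strand) and has 2 exons. Its lowest, median and highest values were 18, 23.2 and 32.2 TPM in S217879 livers and 23.1, 38.9 and 49.1 TPM in vehicle livers. All 10 S217879 livers lay below the vehicle median, 5 of them below every vehicle liver, and 8 of 10 vehicle livers lay above every S217879 liver. The vehicle livers that fell within the S217879 range were replicates 6 (23.1 TPM) and 7 (29.2 TPM), the libraries with the largest rRNA-type share. The log2 difference was -0.66 (SE 0.129, limma adjusted p = 1.127e-04), and it was -0.54 after median-of-ratios scaling (limma adjusted p = 6.953e-06). Foxa3 was called lower in all 36 of 36 alternative fits, with log2 differences between -0.81 and -0.54.

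The window around the start of Foxa3 is shown because Foxa3 is the factor that changed under every setting. It covers 250 bases before and 50 bases after the transcript start (RefSeq, GRCm38.p6, chr7:19023490-19023789, minus strand), and capitals mark the 50 bases of the transcript.
Foxa3: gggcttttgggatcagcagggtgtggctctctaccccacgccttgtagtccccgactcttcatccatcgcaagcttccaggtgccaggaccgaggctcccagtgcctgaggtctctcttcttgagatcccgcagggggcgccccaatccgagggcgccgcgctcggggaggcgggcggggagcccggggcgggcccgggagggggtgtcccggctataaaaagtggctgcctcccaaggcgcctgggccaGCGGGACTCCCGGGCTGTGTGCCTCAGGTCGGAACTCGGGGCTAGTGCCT
Of its bases 69.0% are G or C. It was searched on both strands for the antioxidant response element core that NRF2 binds (TGACNNNGC), a FOXA motif (TGTTTAC), an HNF4A motif (CAAAGTCCA), an ONECUT motif (ATCGAT), an LRH-1 motif (CAAGGTCA) and a C/EBP motif (TTGCNNAA), and none of these letters was found. The same search over 14 windows of the 9 factors found 3 matches. The antioxidant response element core was present once, as TGACGCAGC, its first base 7 bases before the start of Cebpb, and 12.4% of 32817 mouse windows of this length hold it. The FOXA motif was present in the Foxa1 window (3.65% of all windows), and the C/EBP motif in a window of Nr5a2 (10.8%). The HNF4A, ONECUT and LRH-1 motifs, held by 0.475%, 0.926% and 1.56% of all windows, were in 0 of 14. A match describes the letters of a window and is not a bound site.

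Foxa1 and Foxa2, the pioneer factors that open liver chromatin before Foxa3 is expressed in development, did not pass the test. Foxa1 had 10.1, 11.7 and 13.4 TPM as lowest, median and highest in S217879 livers and 7.99, 15.4 and 22.6 TPM in vehicle livers. All S217879 livers lay inside the wider vehicle range, 10 of 10 below the vehicle median, and 7 of 10 vehicle livers lay above every S217879 liver. The log2 difference of Foxa1 was -0.27 (SE 0.13, limma adjusted p = 0.1099). It was -0.36 without vehicle replicate 6 (limma adjusted p = 0.00995), -0.33 without vehicle replicate 7 (limma adjusted p = 0.0372) and -0.44 without both (limma adjusted p = 0.000473), while after median-of-ratios scaling it was -0.16 (limma adjusted p = 0.156). Foxa2 had 16.8, 25.5 and 32.5 TPM in S217879 livers and 15, 29.9 and 50.5 TPM in vehicle livers. The Foxa2 groups overlapped through most of their range, with a log2 difference of -0.15 (95% interval -0.49 to 0.20, limma adjusted p = 0.547). It was called in 1 of 36 alternatives, at -0.39 with array weights (limma adjusted p = 0.0112).

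The summed TPM of the 3 FOXA genes was 61.5 ± 6.65 in S217879 livers and 83.0 ± 20.3 in vehicle livers (SD, n = 10 each). Of this sum Foxa3 made up 39.3% ± 6.24 in S217879 livers and 47.4% ± 5.86 in vehicle livers. Foxa2 made up 41.3% ± 5.83 in S217879 livers and 34.7% ± 4.66 in vehicle livers, and Foxa1 made up 19.4% ± 1.91 in S217879 livers and 17.9% ± 1.39 in vehicle livers. Foxa3 was the largest share on average in vehicle livers. In S217879 livers Foxa2 and Foxa3 were not ordered, with medians of 39.4% for Foxa2 and 39.9% for Foxa3 and Foxa2 above Foxa3 in 5 of 10 livers. The ratio of Foxa3 to Foxa2 within a liver was 0.987 ± 0.277 in S217879 livers and 1.40 ± 0.312 in vehicle livers, a log2 difference of -0.52 (two-sided permutation test, p = 0.0273 adjusted over 11 ratios). All 10 S217879 livers lay below the vehicle median of this ratio, but without vehicle replicates 6 and 7 the difference was -0.48 (permutation test, adjusted p = 0.0723). The ratio of Foxa1 to Foxa2 differed by -0.13 (permutation test, adjusted p = 0.148). Across all 20 livers, with group means removed and after median-of-ratios scaling, Foxa1 and Foxa2 had a Pearson r of 0.87 and were among each other's 3 most similar genes of 13401. Foxa3 had an r of -0.06 with Foxa1 and of -0.08 with Foxa2.

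**Figure D2:**
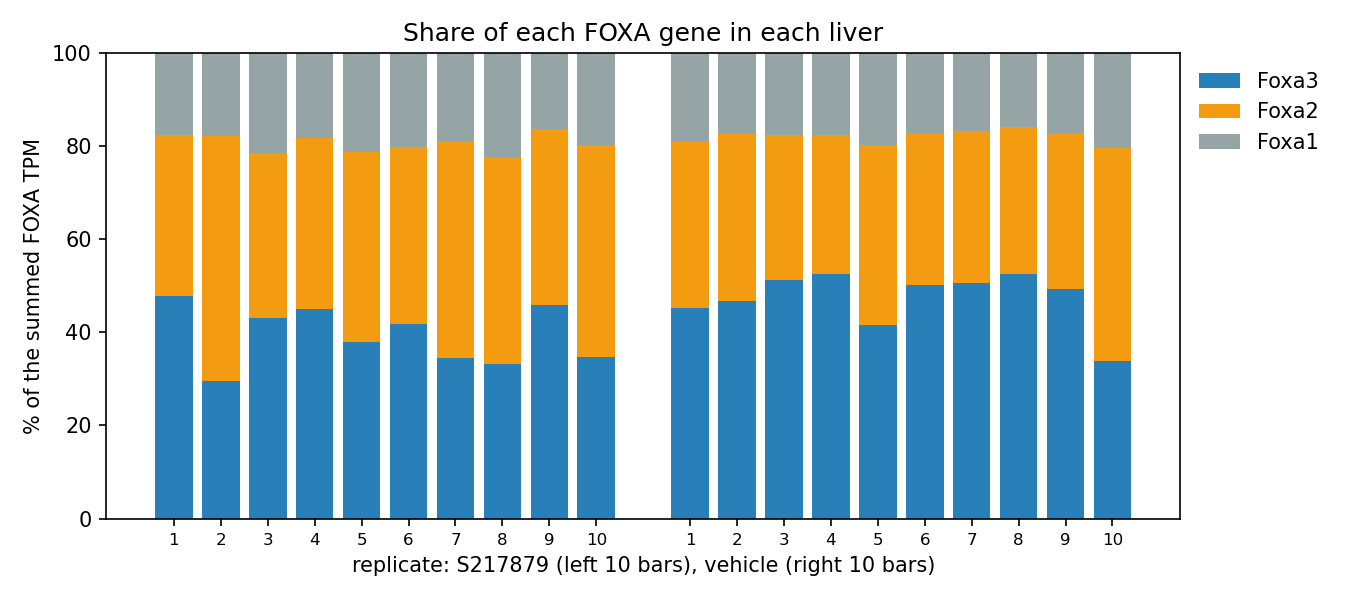
Share of each FOXA gene in the summed FOXA TPM (%), as stacked bars, 1 bar per liver, with the 10 S217879 livers on the left and the 10 vehicle livers on the right. The Foxa3 share lies between 29.6% and 47.9% in S217879 livers and between 33.9% and 52.5% in vehicle livers.

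Hnf4a, the nuclear receptor on which most hepatocyte genes depend, was not called on the deposited values. Its lowest, median and highest values were 212, 256 and 364 TPM in S217879 livers and 149, 265 and 323 TPM in vehicle livers. The highest value belonged to S217879 replicate 6 and the lowest to vehicle replicate 6. Vehicle replicate 7, at 186.5 TPM, also lay below every S217879 liver, and the groups otherwise overlapped. The log2 difference was 0.09 (95% interval -0.19 to 0.36, limma adjusted p = 0.674). After median-of-ratios scaling it was 0.20 (SE 0.079, limma adjusted p = 0.0366), a call that was kept in 11 of 20 fits that each left out 1 library on that scale, and lost without any one of S217879 replicates 1, 3, 6 and 7 or vehicle replicates 2, 4, 5, 6 and 7. Without vehicle replicates 6 and 7 together it was 0.18 on that scale (limma adjusted p = 0.0893) and -0.06 on the deposited scale (limma adjusted p = 0.588).

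**Figure D3:**
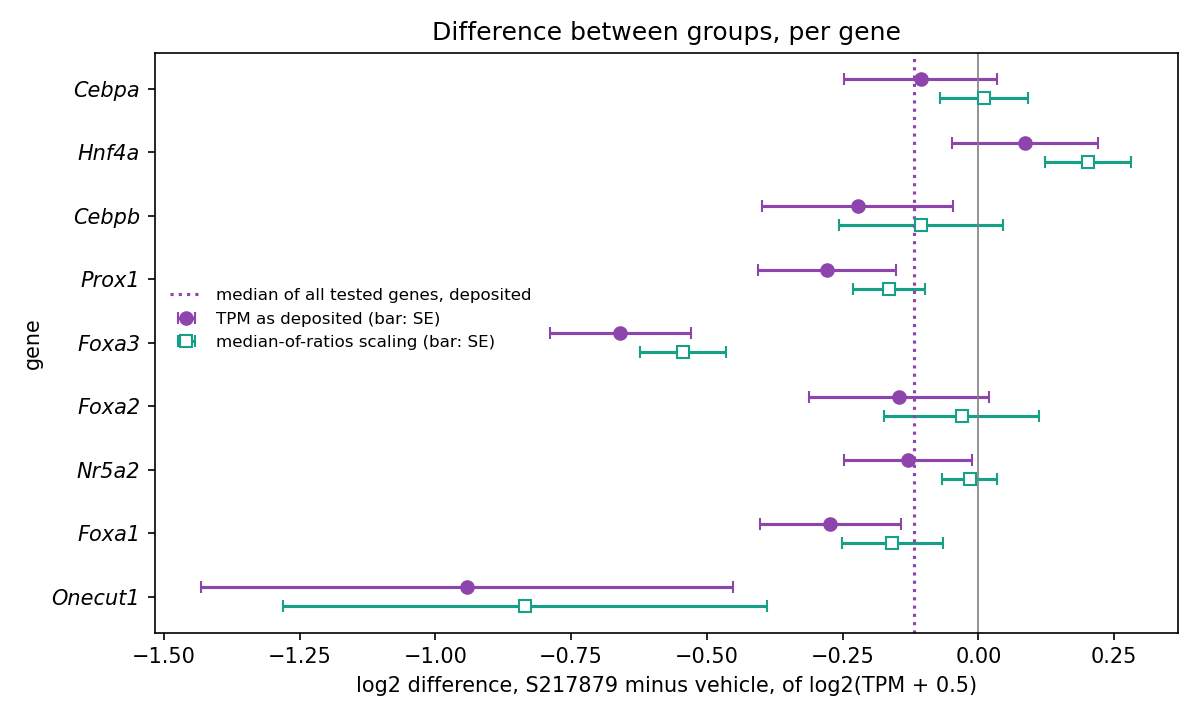
Log2 difference of each factor, S217879 minus vehicle, on log2(TPM + 0.5), from the deposited TPM (filled circles) and after median-of-ratios scaling (open squares), with SE bars; the dotted line is the median of all tested genes on the deposited scale, -0.12. Foxa3 lies at -0.66 and -0.54, and Onecut1 has the longest bars.

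Relative to Hnf4a in the same liver, Foxa3 was lower in every S217879 liver than in any vehicle liver. The ratio of Foxa3 to Hnf4a had a lowest, median and highest value of 0.0734, 0.0887 and 0.113 in S217879 livers and 0.128, 0.151 and 0.184 in vehicle livers. The log2 difference was -0.76 (SE 0.081, permutation test, adjusted p = 0.00022, lower in 10 of 10 S217879 livers). This ratio differed by -0.79 to -0.72 when each library was left out in turn. The ratio to Hnf4a was also lower for Foxa1 (-0.37, adjusted p = 0.0179), Prox1 (-0.37, adjusted p = 0.0179) and Nr5a2 (-0.22, adjusted p = 0.0273), all by the permutation test over 11 ratios. Without vehicle replicates 6 and 7, Foxa1 kept its call, while Prox1 stood at -0.36 (permutation test, adjusted p = 0.0523) and Nr5a2 at -0.22 (permutation test, adjusted p = 0.0723), so these differences moved little and missed the threshold with 2 fewer livers. The ratios of Cebpa (-0.19, adjusted p = 0.0632), Cebpb (-0.31, adjusted p = 0.0667), Onecut1 (-1.15, adjusted p = 0.0667) and Foxa2 (-0.23, adjusted p = 0.199) to Hnf4a did not pass the permutation test. All 8 ratios share Hnf4a as their denominator, so they are not independent of each other, and a high Hnf4a value acts to lower each. Not every ratio was low in S217879 replicate 6, the liver with the highest Hnf4a, because its Cebpb was also the highest. Without this liver the ratio of Cebpb to Hnf4a differed by -0.36.

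**Figure D4:**
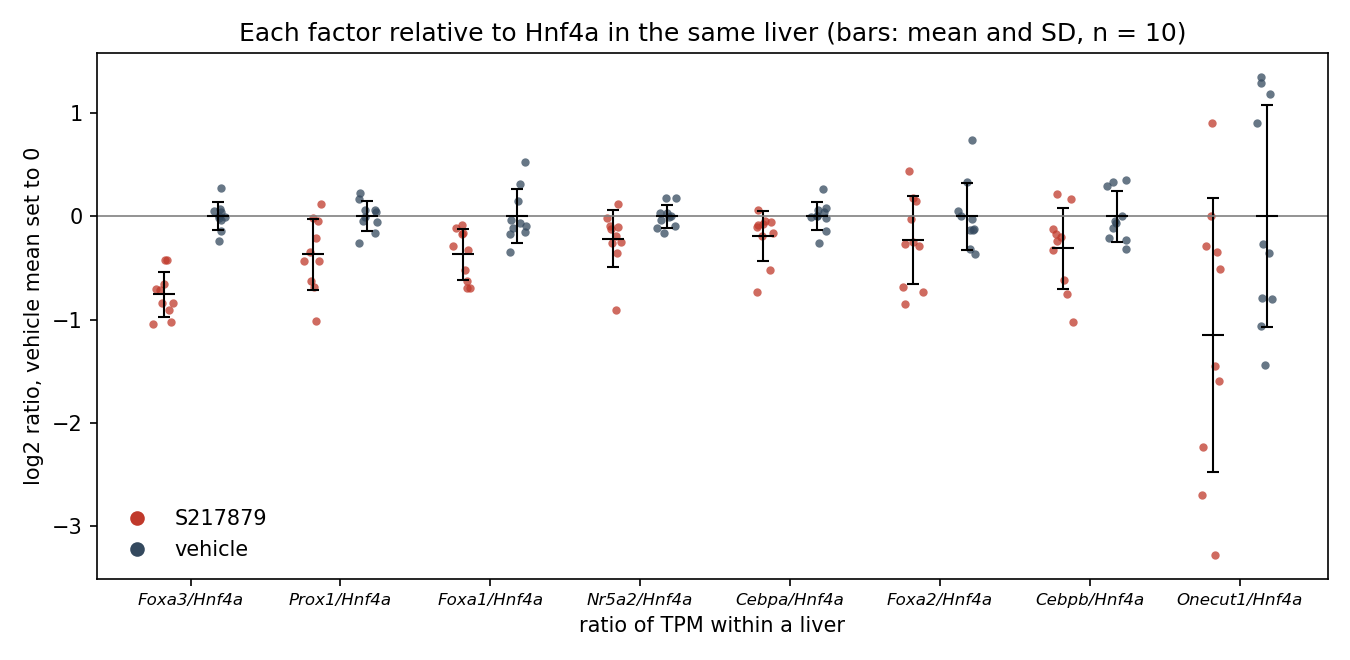
Log2 ratio of each of 8 factors to Hnf4a within a liver, with the vehicle mean of each ratio set to 0, for 10 S217879 livers (red, left) and 10 vehicle livers (dark, right); black bars are the mean and SD. The Foxa3 points of the groups are separate, with means 0.76 apart, and every other ratio overlaps.

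Nr5a2 encodes LRH-1, a nuclear receptor that induces bile acid synthesis and reverse cholesterol transport genes. It had 15.7, 18.9 and 21.1 TPM as lowest, median and highest in S217879 livers and 11.8, 22 and 24.2 TPM in vehicle livers. All 10 S217879 livers lay below the vehicle median, although vehicle replicate 6 was the lowest of all. Nr5a2 differed by -0.13 on the log2 scale (95% interval -0.37 to 0.11, limma adjusted p = 0.434) and -0.02 after median-of-ratios scaling (limma adjusted p = 0.811). It was called lower in 5 of 36 alternatives, at -0.27 without vehicle replicates 6 and 7 (limma adjusted p = 0.00267), -0.27 without the rRNA-type genes (limma adjusted p = 3.817e-05), -0.27 without both (limma adjusted p = 0.000171), -0.26 with array weights (limma adjusted p = 0.000741) and -0.20 without the 20 most abundant genes (limma adjusted p = 0.000959). Without vehicle replicate 6 alone Nr5a2 stood at -0.22, its lowest value with any single library left out, and was not called. Nr5a2 varied least of the factors within the S217879 group after Foxa1, with a coefficient of variation of 11.5% against 9.74%.

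Cebpa, the C/EBP factor of quiescent hepatocytes, had 294, 434 and 492 TPM as lowest, median and highest in S217879 livers and 267, 488 and 589 TPM in vehicle livers. The S217879 livers lay within the vehicle range, and 5 vehicle livers lay above all of them. Cebpa differed by -0.11 on the log2 scale (95% interval -0.39 to 0.18, limma adjusted p = 0.614), and it turned to 0.01 after median-of-ratios scaling. Cebpa was called lower in 6 of 36 alternatives, at -0.25 without vehicle replicates 6 and 7 (limma adjusted p = 0.043), -0.25 without the rRNA-type genes (limma adjusted p = 0.0102), -0.25 without both (limma adjusted p = 0.0226), -0.22 with quantile normalization (limma adjusted p = 0.0187), -0.23 with array weights (limma adjusted p = 0.0143) and -0.18 without the 20 most abundant genes (limma adjusted p = 0.0484). Cebpb, the C/EBP factor of the acute phase and of regeneration, had 72.2, 114 and 221 TPM in S217879 livers and 81.4, 140 and 204 TPM in vehicle livers. S217879 replicate 6 was the highest of all livers, and 2 S217879 livers lay below every vehicle liver. The log2 difference of Cebpb was -0.22 (95% interval -0.58 to 0.14, limma adjusted p = 0.369), and it was called in 1 of 36 alternatives, at -0.37 without the rRNA-type genes (limma adjusted p = 0.0453). The ratio of Cebpb to Cebpa, which is known to shift in the acute phase, was 0.287 ± 0.0816 in S217879 livers and 0.306 ± 0.0547 in vehicle livers (permutation test, adjusted p = 0.426). Cebpb shares 312 exon bases with Tmem189 on the opposite strand, and no source used here gives the use of strand in counting, so part of its reads could belong to that gene.

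Onecut1 was the most variable factor. It had 0.943, 4.4 and 15.1 TPM as lowest, median and highest in S217879 livers and 3.62, 7.14 and 22.5 TPM in vehicle livers. Of the S217879 livers 5 lay below every vehicle liver, while replicates 6 and 10 reached 12.3 and 15.1 TPM. The highest liver exceeded the lowest by 16 times in the S217879 group and by 6.22 times in the vehicle group. The log2 difference was -0.94 (SE 0.49, 95% interval -1.97 to 0.09, limma adjusted p = 0.162), and the interval includes 0. Onecut1 was called in 2 of 36 alternatives, at -1.10 without the rRNA-type genes (limma adjusted p = 0.0391) and -1.23 without those and vehicle replicates 6 and 7 (limma adjusted p = 0.0412). The genes whose pattern was most like that of Onecut1 across the 20 livers with group means removed were Slc25a30 (r = 0.89), B4galt1 (r = 0.88) and Socs2 (r = 0.86), the last an inhibitor of growth hormone signalling.

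Prox1, a homeobox factor that sets hepatocyte against bile duct fate, had 21.1, 27.6 and 36.8 TPM in S217879 livers and 20.5, 34.8 and 41.8 TPM in vehicle livers. Of the S217879 livers 9 of 10 lay below the vehicle median, and 4 vehicle livers lay above all of them. Prox1 differed by -0.28 on the log2 scale (SE 0.127, limma adjusted p = 0.0941) and -0.16 after median-of-ratios scaling (limma adjusted p = 0.042). On the median-of-ratios scale the call was kept in 9 of 20 fits that each left out 1 library, and lost without any one of S217879 replicates 2, 3, 6, 7 and 8 or vehicle replicates 4, 5, 7, 8, 9 and 10. The deposited values gave -0.36 without vehicle replicate 6 (limma adjusted p = 0.00934), -0.32 without vehicle replicate 7 (limma adjusted p = 0.0471) and -0.41 without both (limma adjusted p = 0.00171). The antisense gene Prox1os, which shares 133 exon bases with Prox1, differed by -0.39 (limma adjusted p = 0.0914).

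The levels of the factors were related to each other within a group in 10 tests on log2 values after median-of-ratios scaling. In vehicle livers Hnf4a and Cebpa had a Pearson r of 0.68 (permutation p = 0.0324, adjusted p = 0.324) and a Spearman rho of 0.89 (permutation p = 0.00132, adjusted p = 0.0132), with r = 0.77 without the 2 livers farthest from the median. In S217879 livers the same pair had r = 0.35 (permutation test, adjusted p = 0.464) and rho = 0.33 (permutation test, adjusted p = 0.432), and the difference between the groups was not tested. The other 8 relations, of Hnf4a with Nr5a2, Prox1 and Foxa2 and of Cebpa with Cebpb in either group, had r between -0.43 and 0.52 and did not pass the permutation test (lowest adjusted p = 0.464 for r and 0.432 for rho). On the deposited scale the vehicle relations had r between 0.78 and 0.95, and vehicle replicate 6 was the lowest vehicle liver for 7 of the 9 factors there. By the same measure over all 20 livers with group means removed, the genes most like Cebpa were Epn1 (r = 0.93), Map2k2 (r = 0.93) and Tysnd1 (r = 0.91), and those most like Cebpb were Arf6 (r = 0.89), Rbm15b (r = 0.87) and Srf (r = 0.86). For Hnf4a they were Wwc1, Ubp1 and 2810459M11Rik (r = 0.80 to 0.81), and for Foxa3 Avpr1a, Jtb and Tbc1d22b (r = 0.73 to 0.75).

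While Hnf4a itself was not called, genes annotated in and beside it were. Hnf4aos, an antisense RNA gene that starts inside Hnf4a and runs on the opposite strand past the distal Hnf4a start, rose in S217879 livers. The genes in this paragraph were chosen by position, within 50 kb of a factor, after the values of Hnf4aos had been seen. Its lowest, median and highest values were 10.9, 17.2 and 24.2 TPM in S217879 livers and 1.52, 3.43 and 6.56 TPM in vehicle livers. The groups did not overlap, as for 3.73% of all genes tested and for 0 of the 9 factors. The log2 difference was 2.09 (SE 0.19, limma adjusted p = 4.43e-08), it was 2.20 after median-of-ratios scaling, and it was called in 36 of 36 alternative fits. Relative to Hnf4a in the same liver, Hnf4aos stood at 6.62% ± 1.86 in S217879 livers and 1.48% ± 0.474 in vehicle livers (SD, n = 10 each). S217879 replicate 6, the liver with the highest Hnf4a, had the lowest S217879 value of this percentage, 2.99%, which was still above the highest vehicle value of 2.34%.

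**Figure D5:**
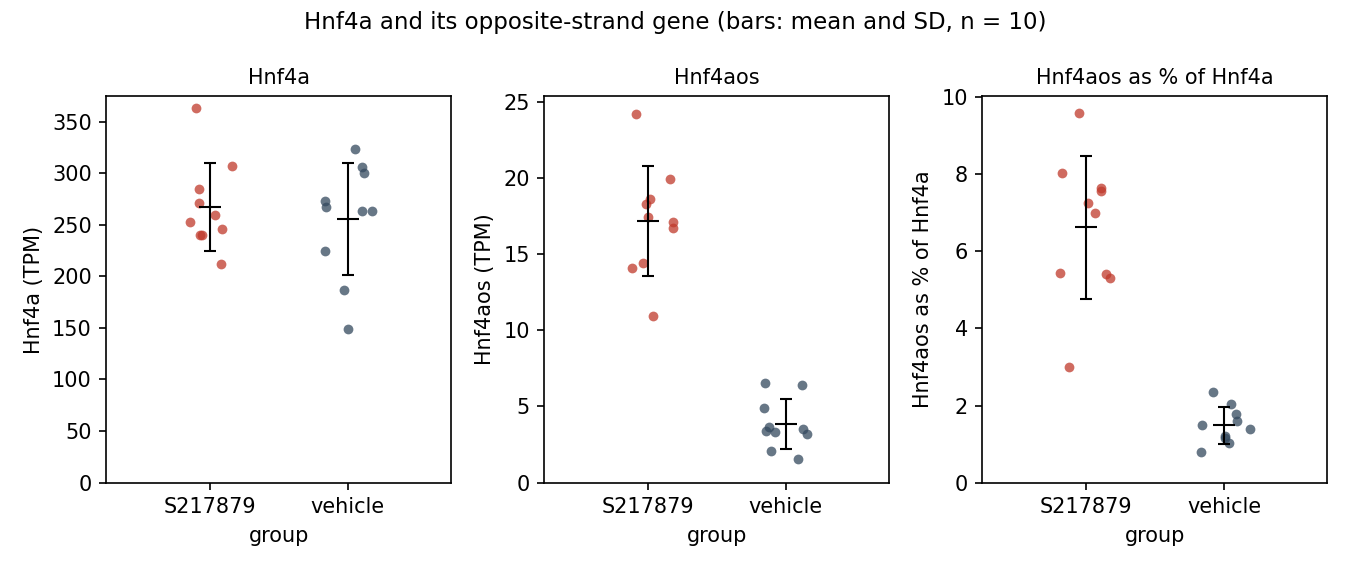
TPM of Hnf4a (left), TPM of Hnf4aos (middle) and Hnf4aos as a percentage of Hnf4a (right) in each of 10 S217879 livers (red) and 10 vehicle livers (dark), with the mean and SD as black bars. Hnf4a overlaps between the groups, whereas Hnf4aos lies at 10.9 to 24.2 TPM in S217879 livers and at 1.52 to 6.56 TPM in vehicle livers.

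Hnf4a has a distal start, 40.4 kb upstream of the start of its full-length adult transcript, and Hnf4aos begins between them (GRCm38, chr2:163493807-163541720, minus strand). The first base of Hnf4aos lies 5.5 kb upstream of the full-length Hnf4a start and 34.9 kb downstream of the distal start. The distal promoter is known for use in the fetal liver, pancreas and intestine and the proximal promoter for use in the adult hepatocyte. The table has 1 value for each gene, so transcripts from the 2 starts cannot be told apart. Hnf4a and Hnf4aos share 0 exon bases. The 3 windows at these starts are shown because the RNA that rose starts between those of a gene that was not called, and capitals mark the 50 bases from each transcript start. They come from RefSeq (GRCm38.p6): Hnf4a distal at chr2:163506607-163506906, plus strand, Hnf4aos at chr2:163541672-163541971, minus strand, and Hnf4a proximal at chr2:163546905-163547204, plus strand.
Hnf4a distal: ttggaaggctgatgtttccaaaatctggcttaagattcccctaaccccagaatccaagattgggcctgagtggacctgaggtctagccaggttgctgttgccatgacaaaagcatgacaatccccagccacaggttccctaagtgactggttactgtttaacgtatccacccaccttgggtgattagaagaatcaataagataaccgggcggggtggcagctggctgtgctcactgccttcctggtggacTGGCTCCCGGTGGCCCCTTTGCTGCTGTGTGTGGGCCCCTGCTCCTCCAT
Hnf4aos: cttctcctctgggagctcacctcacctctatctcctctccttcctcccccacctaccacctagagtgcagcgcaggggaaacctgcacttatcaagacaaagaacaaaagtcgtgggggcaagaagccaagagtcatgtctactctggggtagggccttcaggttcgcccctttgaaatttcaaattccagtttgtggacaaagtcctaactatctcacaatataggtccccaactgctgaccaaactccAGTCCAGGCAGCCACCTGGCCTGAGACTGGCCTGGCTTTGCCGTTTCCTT
Hnf4a proximal: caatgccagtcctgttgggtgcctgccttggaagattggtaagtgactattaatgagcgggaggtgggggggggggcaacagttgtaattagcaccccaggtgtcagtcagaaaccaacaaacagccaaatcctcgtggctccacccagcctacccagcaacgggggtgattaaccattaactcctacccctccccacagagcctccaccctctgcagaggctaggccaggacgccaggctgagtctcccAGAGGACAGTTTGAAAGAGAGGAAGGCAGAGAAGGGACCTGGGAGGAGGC
None of the 6 motifs named above, the antioxidant response element core included, was found in these 3 windows.

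R3hdml, a protein-coding gene 4196 bases upstream of Hnf4a, averaged 6.28 ± 2.46 TPM in S217879 livers and 2.27 ± 0.988 TPM in vehicle livers, a log2 difference of 1.27 (limma adjusted p = 0.0011, higher in 9 of 10 S217879 livers than the vehicle median). Gm25881, a snRNA model of 103 bases within an intron of the distal Hnf4a transcript, averaged 10.5 ± 3.34 TPM in S217879 livers and 5.71 ± 1.58 TPM in vehicle livers (log2 difference 0.81, limma adjusted p = 0.00184). Both overlap the span of Hnf4aos on the opposite strand with 0 shared exon bases. Farther out, Fitm2, which acts in lipid droplet formation, and Ttpal were not called (0.07 and -0.14, limma adjusted p = 0.737 and 0.363). Around all 9 factors 16 of 42 genes within 50 kb reached the minimum level, of which 4 rose and 2 fell, beside 6.07% and 23.5% of all genes tested. Besides the 3 at Hnf4a, Gm35665 near Cebpa rose by 0.48 (limma adjusted p = 8e-04), Tmem189, which makes plasmalogens and overlaps Cebpb, fell by 0.51 (limma adjusted p = 0.00255), and Mypop, 11.5 kb from Foxa3, fell by 0.59 (limma adjusted p = 3.17e-05). Tmem189 averaged 11.3 TPM in S217879 livers and 16.1 TPM in vehicle livers, far below Cebpb, so part of its reads could belong to Cebpb. Mypop was low, at 1.16 TPM in S217879 livers and 2.01 TPM in vehicle livers. It shares 1053 of its 2655 exon bases with Gm10676 and 126 with Mypopos, both on the opposite strand. The use of strand in counting is not known for these genes either. Sympk and Irf2bp1, which lie closer to Foxa3 than Mypop does, were not called (-0.16 and -0.21, limma adjusted p = 0.309 and 0.207).

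Of 24 other liver transcription factors tested, 1 rose and 5 fell, beside 6.07% and 23.5% of all genes tested, so the share called was near the background. Their median log2 difference was -0.21 beside -0.12 for all genes. After median-of-ratios scaling the count was 2 higher and 7 lower, beside 26.6% and 27.1% of all genes. Nr1i3, which encodes the xenobiotic receptor CAR, averaged 78.2 ± 11.1 TPM in S217879 livers and 50.5 ± 17.6 TPM in vehicle livers (log2 difference 0.70, limma adjusted p = 9.97e-04). Nfia (-0.37, limma adjusted p = 0.0116) and Onecut2 (-0.36, limma adjusted p = 0.0124) fell most, and both were lower after median-of-ratios scaling too.

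Among 6 tested paralogs of the factors 1 rose and 3 fell on either scale. Their median was -0.26 as deposited and -0.14 after median-of-ratios scaling. Over all genes 29.6% were called as deposited, 6.07% higher and 23.5% lower. After median-of-ratios scaling 53.7% of all genes were called, with 26.6% higher and 27.1% lower. Cebpe, a C/EBP factor known from granulocytes, averaged 38.4 ± 8.09 TPM in S217879 livers and 20.8 ± 4.33 TPM in vehicle livers (log2 difference 0.87, limma adjusted p = 1.38e-06, higher than the vehicle median in 10 of 10 livers). Prox2 (-0.54, limma adjusted p = 7.86e-05) and Cebpg (-0.37, limma adjusted p = 0.0199) fell, and so did Onecut2, given above. Of 10 tested macrophage and myeloid markers 7 fell, and S100a8 and S100a9 were among those not called (-0.34 and -0.19). The part of myeloid cells in the Cebpe value was not tested.

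Genes known as targets of the factors moved in both directions. Of 13 HNF4A targets 4 rose and 1 fell, with a median of 0.10, beside 6.07% higher and 23.5% lower among all genes. After median-of-ratios scaling the count was 7 higher and 1 lower, with a median of 0.21, beside 26.6% higher and 27.1% lower among all genes. Cyp8b1, which makes cholic acid, averaged 282 ± 70.4 TPM in S217879 livers and 134 ± 37.9 TPM in vehicle livers (log2 difference 1.09, limma adjusted p = 4.9e-06). Ttr, the thyroid hormone carrier, rose by 0.50 (limma adjusted p = 0.0117), and Apoa1, the main HDL protein, fell by 0.69 (limma adjusted p = 0.00131). Of 7 tested FOXA targets 1 rose and 2 fell, against 2 higher and 2 lower after median-of-ratios scaling. Igfbp1, an insulin-repressed binding protein of insulin-like growth factors, averaged 25.1 ± 6.50 TPM in S217879 livers and 72.8 ± 27.5 TPM in vehicle livers (log2 difference -1.46, limma adjusted p = 5.77e-06). Cpt1a, which admits fatty acids to mitochondria, fell by 0.54 (limma adjusted p = 0.00246), and Ttr is also on this list.

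Of 12 C/EBP targets 3 fell and 9 did not pass, with a median of -0.19, beside 6.07% higher and 23.5% lower among all genes. After median-of-ratios scaling the count was 3 higher and 3 lower, beside 26.6% higher and 27.1% lower among all genes. The share of C/EBP targets called was thus near the background. The 3 C/EBP targets that fell encode acute phase proteins. Orm1 (-0.26) and Hamp (-0.07), acute phase genes on the same list, were not called (limma adjusted p = 0.159 and 0.928). Orm2 moved most, at 44.5 ± 16 TPM in S217879 livers and 120 ± 25.1 TPM in vehicle livers (log2 difference -1.45, limma adjusted p = 1.62e-10). Hp, which encodes haptoglobin, fell by 0.41 (limma adjusted p = 0.0385), and Crp is the third. Of 9 LRH-1 targets 3 rose and 3 fell, with a median of 0.01. After median-of-ratios scaling the count was 4 higher and 3 lower, and the shares of all genes are those given above. Abcg8, which exports sterols into bile with its partner Abcg5, averaged 270 ± 35.0 TPM in S217879 livers and 119 ± 36.4 TPM in vehicle livers (log2 difference 1.24, limma adjusted p = 2.23e-08). The kinase gene Plk3 fell by 0.71 (limma adjusted p = 0.0166). The target lists overlap, since Ttr, Tat and Cyp8b1 each stand on 2 or more of them.

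The tissue label fitted the hepatocyte markers, which were all present, with a summed level of 63105 to 98605 TPM in S217879 livers and 47431 to 104062 TPM in vehicle livers. Of these 15 markers 2 rose and 4 fell, among them Trf (-0.80, limma adjusted p = 1.33e-05) and Apoa1 as the lowest and Ttr and Apoa2 (0.44, limma adjusted p = 0.029) as those that rose, beside 6.07% higher and 23.5% lower among all genes. After median-of-ratios scaling the count was 6 higher and 4 lower, beside 26.6% and 27.1% of all genes. Some markers of other liver cells moved with the groups, and others on the same lists did not. Of 10 tested macrophage and myeloid markers 7 fell, with a summed level of 314 to 582 TPM in S217879 livers and 447 to 797 TPM in vehicle livers, led by Gpnmb (-1.40) and Trem2 (-1.05), which mark lipid-associated macrophages. Of 8 tested cholangiocyte markers 4 fell, with Spp1 (-1.04) and Tspan8 (-0.66) lowest, and 3 were lower after median-of-ratios scaling. Krt19 (-0.26) and Sox9 (-0.08) were among those not called (limma adjusted p = 0.295 and 0.662). The sum was 104 to 269 TPM in S217879 livers and 194 to 502 TPM in vehicle livers. Spp1 made up most of it, at 144 ± 52.6 TPM in S217879 livers and 286 ± 68.6 TPM in vehicle livers (SD). Of 8 tested endothelial markers 3 rose, among them Lyve1 (0.86) and Kdr (0.43), with sums of 125 to 171 TPM in S217879 livers and 77.7 to 154 TPM in vehicle livers. Pecam1 (0.13), Cdh5 (0.08), Pdpn (-0.10), Stab2 (-0.10) and Flt4 (-0.13) were not called (lowest limma adjusted p = 0.404). After median-of-ratios scaling 5 endothelial markers were higher and 0 lower. Of 7 tested fetal and reprogramming markers 3 fell, with H19 at 1.06 ± 0.486 TPM in S217879 livers and 5.91 ± 2.16 TPM in vehicle livers (log2 difference -2.02, limma adjusted p = 2.17e-07), and Spp1 is on that list too. Afp (-0.03) and Gpc3 (0.06) were among the fetal markers not called (limma adjusted p = 0.878 and 0.764). Cidec and Pparg, the 2 of 6 adipocyte markers above the minimum, were not called, and Adipoq, Plin1, Lep and Retn averaged under 0.1 TPM. The 10 pancreas and intestine markers summed to at most 0.631 TPM in S217879 livers and 1.12 TPM in vehicle livers, with Cpa1, Cpb1 and Cdx2 at 0 in every library. The part of these cell types in the Foxa3 and Hnf4aos results was not tested.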

How the data were processed

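TPM values of 49315 genes in 20 liver libraries were deposited by the authors, and each library sums to 1000000. Per the labels' protocols, a kit for lipid-rich tissue was used for the RNA, and stranded libraries were made after polyA capture. The build GRCm38 and the tools STAR 2.5.2b, Subread 1.5.2, featureCounts and Trimmomatic 0.36 are named, per the submitters' processing notes. Strand use, the annotation and the treatment of multi-mapping reads were not given in those sources. TPM keeps no depth, so the number of reads is unknown.

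Groups came from the treatment labels. Nothing pairs the mice, and 0 pairs of libraries held identical values. The 13401 genes averaging 1 TPM or more were compared on log2(TPM + 0.5), which understates changes of low genes, with limma 3.58.1 in R 4.3.3 (eBayes with trend and robust, Benjamini-Hochberg adjustment over all 13401 genes). The words rose and fell are kept for genes past this test. Ratios (11) and relations (10) were tested by two-sided permutation with 100000 resamples in numpy 2.4.6, adjusted over each family. The exact Wilcoxon test of the ratios used scipy 1.17.1. On simulated data of the 13401 genes, 67.2% of changes of 0.5 on the log2 scale were recovered, 95.5% of changes of 1 and 98.5% of changes of 2, with 7 of 13201 unchanged genes called. The simulated spread was independent between genes and held no shift of a whole library, such as that of vehicle replicates 6 and 7. These rates therefore do not cover errors from library scale.

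The factors and gene lists were chosen with earlier results of these data known, so no p-value was computed over a list. Besides the factors and 4 genes that check the treatment, the text names of each list the 2 called members with the highest and the 2 with the lowest log2 difference, and for some factors the 3 most similar genes. Not every gene so chosen is reported here. Crp, Orm1, Hamp, Abcg5, S100a8, S100a9, the genes near a factor and the marker genes given as examples or at 0 were named after their values were seen. Loci came from GENCODE M21 (GRCm38) and promoter windows from RefSeq (GRCm38.p6), with a window for 9 of 9 factors. Alternatives were a pseudocount of 0.1 or 1, a minimum of 0.1 or 5 TPM or no minimum, 5 other scalings, array weights, eBayes without trend and robust, an exact Wilcoxon test and libraries left out. The genes near a factor, median-of-ratios scaling without vehicle replicates 6 and 7 or without each library, and rescaling without rRNA-type genes and those replicates were added after seeing the data.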

Additional observations from a re-analysis of the deposited data

Results flagged for a closer look

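In 40 groups of 10 livers, 18 of factor levels and 22 of ratios, 2 held a liver that stood apart from the others. About 1 in 20 such groups is expected to by chance. In the S217879 group Cebpb was 221 TPM in replicate 6, and the next liver had 151 TPM. That gap was 0.472 of the whole range of the group, past the limit of Dixon's test for 10 values. In the same liver the log2 ratio of Nr5a2 to Hnf4a was -4.53, and the next lowest S217879 liver had -3.98, a gap of 0.541 of the range. S217879 replicate 6 also had the highest Hnf4a of all livers, 364 TPM, and the lowest S217879 percentage of Hnf4aos relative to Hnf4a, 2.99%. The rRNA-type share of this library was 23.4%, near the group's median of 23.1%.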

How the results depend on the processing

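Foxa3, Hnf4aos, Gm25881 and Tmem189 kept their call and direction in 36 of 36 alternatives, and the ratios of Foxa3 and Foxa1 to Hnf4a did so in 23 of 23. The count of genes higher, 813 on the deposited values, was 3561 with median-of-ratios scaling, 3536 with quantile normalization, 1446 without the 20 most abundant genes and 3229 with median-of-ratios scaling without vehicle replicates 6 and 7. The count of genes lower, 3151, was 1642 at a minimum of 5 TPM, where fewer genes were tested. It was 8576 without the rRNA-type genes, 7279 without the 20 most abundant genes and 8023 with array weights. Without vehicle replicates 6 and 7 it was 7303, and without those replicates and the rRNA-type genes 8012. Leaving out each library in turn gave 707 to 875 genes higher and 2656 to 5195 lower, the last without vehicle replicate 6. The median of all genes lay between -0.25 without the rRNA-type genes and 0.01 with quantile normalization.

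The count of factors lower, 1, was 2 with median-of-ratios scaling, 3 with quantile normalization, 7 without the rRNA-type genes, 5 without the 20 most abundant genes, 6 with array weights, 5 without vehicle replicates 6 and 7, 6 without those and the rRNA-type genes, and 1 to 3 with each library left out (over 1 without vehicle replicate 6 or 7). In each setting with 5 or more factors lower, most of the genes tested were called lower too. These counts of all genes lay between 7279, without the 20 most abundant genes, and 8576, without the rRNA-type genes. The number tested on the deposited values was 13401. With median-of-ratios scaling 3634 genes were lower, and with quantile normalization fewer than that. The count of factors higher, 0, was 1 with median-of-ratios scaling. Hnf4a was -0.043 with quantile normalization, -0.058 without the rRNA-type genes and -0.061 with array weights. It was -0.059 without vehicle replicates 6 and 7 and -0.054 without those replicates and the rRNA-type genes. None of these Hnf4a values was called, and Cebpa was 0.011 with median-of-ratios scaling. The cause of these changes was not tested.

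Without vehicle replicates 6 and 7 the ratio of Prox1 to Hnf4a was -0.36, of Nr5a2 to Hnf4a -0.22 and of Foxa3 to Foxa2 -0.48, none past the threshold. The Wilcoxon test called the ratio of Cebpa to Hnf4a, -0.19 (exact test, adjusted p = 0.034). With each library left out, log2 differences ranged for the ratio to Hnf4a from -0.22 to -0.13 for Cebpa (called without S217879 replicate 10, vehicle replicate 4 or vehicle replicate 8), from -0.37 to -0.23 for Cebpb (called without S217879 replicate 6 or 10), from -1.38 to -0.91 for Onecut1 (called without S217879 replicate 10), and from -0.26 to -0.14 for Nr5a2 (not called without vehicle replicate 2, 4, 5 or 7). For Foxa3 to Foxa2 they ranged from -0.62 to -0.44 (not called without vehicle replicate 7). In S217879 livers the relation of Hnf4a with Cebpa was -0.03 and that of Cebpa with Cebpb -0.02 without the 2 farthest livers. That of Hnf4a with Nr5a2 was then 0.67 (permutation p = 0.0409, not adjusted), against -0.02 with all 10 livers. The relation of Hnf4a with Prox1 was 0.06 on the deposited scale. In vehicle livers Hnf4a with Prox1 was -0.36 without the 2 farthest livers.

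No paired analysis was possible because the labels number every mouse separately and the replicate numbers given here only name libraries. The depth of each library is unknown, so the counting error of low values, such as the 0.943 TPM of Onecut1 in its lowest liver, cannot be given.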

Other observations

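Other genes followed single factors across livers. With group means removed and after median-of-ratios scaling, the genes with the highest Pearson r over 20 livers were Topors (0.84), Rhbdd1 (0.83) and Dsc2 (0.82) for Nr5a2, and Phlda1 (0.88) and Foxq1 (0.88), ahead of Foxa1, for Foxa2. The 3 genes most like Prox1 were the predicted models Gm15502, Gm13522 and Gm47465 (0.73 to 0.76). Between factors, the highest values after Foxa1 with Foxa2 were those of Cebpa with Foxa2 (0.67) and Foxa1 (0.65), and the lowest was that of Cebpb with Nr5a2 (-0.61). The livers share library scaling and group centring, and these values are descriptions chosen as the highest and lowest of 13401 genes or of the pairs of factors.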
